A study of Mus musculus with 2 samples.

Results

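Interleukin-10 is described here through 8 genes: *Il10* itself, its receptor chains *Il10ra* and *Il10rb*, the signal carrier *Stat3*, the targets *Socs3* and *Bcl3*, and the regulators *Maf* and *Nfil3*. They are 8 of the 27031 gene columns and were taken by name. *Il10* was selected on its measured ratio between the groups in macrophages of these same data, and the others by their known roles beside it, so the values are a description with no test. IL-10 is a cytokine of macrophages and regulatory T cells that dampens inflammation. It binds a receptor of IL-10RA and IL-10RB chains, and the kinases JAK1 and TYK2 then activate STAT3, which switches on target genes and lowers inflammatory cytokines in macrophages. In tumors, macrophages that make IL-10 are known as a restraint on T cell responses.

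Single cells came from MC38 colon carcinoma grown under the skin of female C57BL/6 mice aged 6 to 8 weeks. One group received 5 mg/kg telmisartan, a blocker of the angiotensin II type 1 receptor, by stomach each day, and the control group received vehicle. Tumors were taken on day 13, live CD45+ cells of 5 mice were pooled for each group, and both pools were tagged and run together in 1 BD Rhapsody capture. Each group is therefore 1 pool, differences between mice cannot be seen, and no test between groups was possible.

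The capture held 20726 putative cells with 107214449 UMIs (counted molecules). After filters, 4542 control cells with 41768680 UMIs (median 8720.5 a cell) and 4427 telmisartan cells with 30939085 UMIs (median 6365) were kept, and no cell barcode occurred more than once. Levels are CPM, the UMIs of a gene per 1000000 UMIs of all genes, added up across each group's cells in a class, with exact Poisson 95% intervals. Ratios are log2 of telmisartan over control with exact conditional binomial 95% intervals, and shares of cells carry exact Clopper-Pearson 95% intervals. For a count of 0 the limit given is a floor of 3 counts, close to a one-sided 95% bound. All of these intervals cover counting error only, not mice or handling. Those of levels and ratios treat each UMI as independent and leave out the spread between cells. They are too narrow where few cells hold most UMIs of a gene, as for *Il10*.

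By their markers, 4052 control and 3999 telmisartan cells were macrophage-like, 368 and 290 dendritic-like, 74 and 114 T-like, and 48 and 24 neutrophil-like. All 11 macrophage markers were measured in the macrophage-like cells, and their summed level was 18522 CPM in control and 18834 in telmisartan. Detection of these markers does not set the class apart, since 11 were also detected in a T-like cluster and 7 in neutrophil-like cells. In macrophage-like cells 5 of the 11 were above and 6 below 0 on the log2 scale. They ran from *Apoe*, at 1158 and 2549 CPM (1.14), to *Mrc1*, at 460 and 324 CPM (−0.51). Of all 11073 genes with at least 100 UMIs there, 43.0% were above 0 and 57.0% below. The median depth of macrophage-like cells was 9005.5 UMIs in control and 6475 in telmisartan, and their median mitochondrial share was 7.20% and 8.14%. The part of depth and mitochondrial share in the differences between groups was not tested.

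*Il10*, the ligand, lies at chr1:131019845-131024974 on the plus strand of GRCm38. In macrophage-like cells it had 329 UMIs in control, or 8.60 CPM (7.69 to 9.58), and 1192 UMIs in telmisartan, or 41.9 CPM (39.6 to 44.4). The telmisartan pool was thus the high one, and the counting intervals lay far apart. The log2 ratio was 2.29 (2.11 to 2.47), a 4.88-fold difference that ranked 5 among 11073 genes with at least 100 UMIs. Dendritic-like cells had 6 and 5 *Il10* UMIs, or 2.04 CPM (0.750 to 4.45) in control and 2.48 (0.806 to 5.80) in telmisartan. The dendritic-like *Il10* ratio has an interval from −1.77 to 2.26, which holds 0 and ends just below the macrophage-like ratio. Neutrophil-like cells had 0 *Il10* UMIs, where a floor of 3 counts allows up to 31.1 CPM in control and 63.5 in telmisartan, and a difference between the groups was not detectable there at this depth.

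The highest *Il10* level of any class or cluster was in the T-like cluster led by *Foxp3*, the defining factor of regulatory T cells. Its 22 control cells held 25 *Il10* UMIs, or 182 CPM (117 to 268), and its 22 telmisartan cells held 54, or 451 CPM (339 to 589). *Il10* was spread over 6 of the 22 control and 10 of the 22 telmisartan cells. The telmisartan cells were again the higher ones, with a log2 ratio of 1.31 (0.61 to 2.06). The other T-like cluster, led by the granzyme gene *Gzmc*, had 2 *Il10* UMIs in each group. Because macrophage-like cells were so many more, they held 94.2% of the *Il10* UMIs in all kept cells, and T-like cells held 5.14%.

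The macrophage-like cells fell into 6 subclusters. Subcluster 1 was led by *Dcstamp* and *Ereg*, subcluster 2 by the interferon response genes *Rsad2* and *Ifit3*, subcluster 3 by *Apoe* and *Folr2*, subcluster 4 by the cell division genes *Top2a* and *Mki67*, subcluster 5 by *Serpina3g* and *Cxcl9*, and subcluster 6 by the replication gene *Ung*. Their cells numbered 1618, 675, 747, 375, 473 and 164 in control and 1363, 1224, 817, 334, 175 and 86 in telmisartan. Subcluster 2, which held more of the telmisartan cells, was shallow, with median depths of 2552 and 2653.5 UMIs. The subclusters were made from the same counts, *Il10* included, so they sort the values and test nothing.

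In control, *Il10* was highest in subcluster 3 at 22.9 CPM (19.6 to 26.6) and subcluster 2 at 18.7 (13.7 to 24.9), whose intervals overlap. Subclusters 6 at 9.11 CPM (5.71 to 13.8) and 4 at 6.18 (4.26 to 8.69) followed, and each interval overlaps that of its neighbor in this order, with subcluster 2 just touching subcluster 6. The lowest *Il10* levels were in subcluster 1 at 2.97 CPM (2.18 to 3.95), apart from subcluster 4, and subcluster 5 at 1.51 (0.606 to 3.11), which overlaps subcluster 1.

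In telmisartan the same pair led, with *Il10* at 68.6 CPM (62.4 to 75.1) in subcluster 3 and 65.7 (58.3 to 73.9) in subcluster 2. Subcluster 1 came next at 32.0 CPM (28.7 to 35.6), then subcluster 6 at 23.3 (15.1 to 34.3), subcluster 4 at 16.2 (12.6 to 20.6) and subcluster 5 at 11.3 (6.55 to 18.0). From subcluster 1 downward each *Il10* interval overlaps that of the next, while subclusters 3 and 2 stand above the rest. *Il10* was higher in telmisartan in each of the 6 subclusters. Its log2 ratio was largest in subcluster 1, at 3.43 (2.99 to 3.90), and in subcluster 5, at 2.90 (1.56 to 4.41), which rests on 7 and 17 UMIs. It was 1.81 (1.36 to 2.30) in subcluster 2, 1.58 (1.32 to 1.84) in subcluster 3, 1.39 (0.77 to 2.04) in subcluster 4 and 1.35 (0.47 to 2.25) in subcluster 6. The subcluster 6 ratio rests on 22 and 25 UMIs in 10 cells, 5 of each group. The subcluster 1 interval lies above those of subclusters 2, 3, 4 and 6, and the subcluster 5 interval overlaps them. In CPM the groups differed most in subclusters 2 and 3. The groups' cells in subcluster 1 were not alike. Split by a finer clustering, an alternative chosen after seeing the data, 51.4% of its control cells and 12.6% of its telmisartan cells were in a cluster led by *Chil3*, where *Il10* was 1.51 CPM (0.780 to 2.64) and 0.735 (0.0186 to 4.09), with overlapping intervals. A cluster led by *Zfp667* held 17.1% and 76.0% of them, with a ratio of 3.55 (2.55 to 4.78), and a cluster led by *Ereg* held 24.1% and 5.80%, with a ratio of 4.87 (3.74 to 6.18). In a cluster led by *Serpinb2*, 34 control cells had 19 *Il10* UMIs and 21 telmisartan cells had 0. With the telmisartan subclusters weighted as in control, an alternative chosen after seeing the data, the *Il10* log2 ratio of all macrophage-like cells was 2.07.

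**Figure D1:**
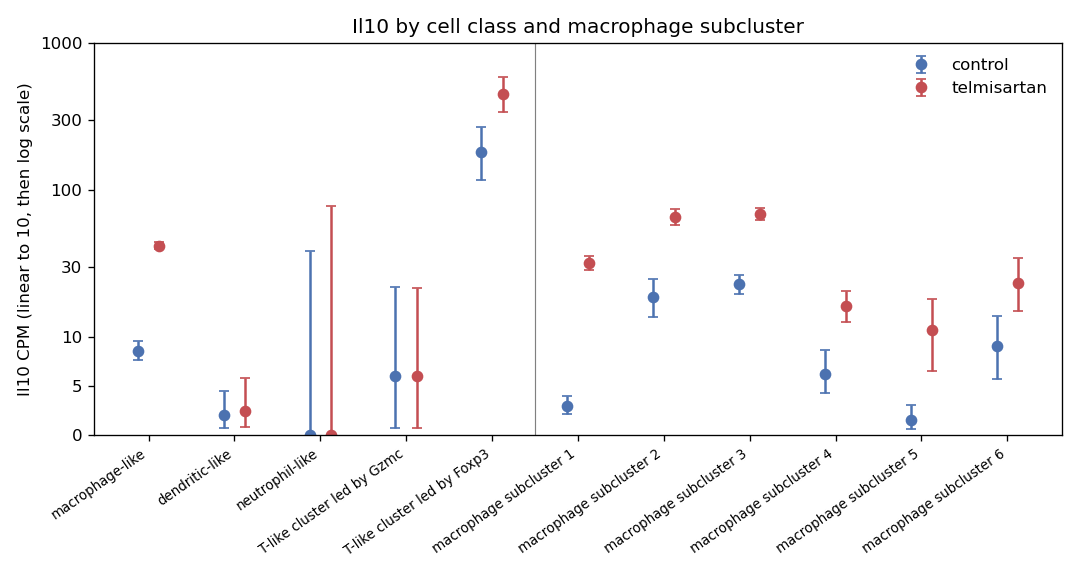
*Il10* level in CPM (axis linear to 10, then logarithmic) in each cell class or T-like cluster and in the 6 macrophage subclusters, for control (blue) and telmisartan (red), with exact Poisson 95% intervals as bars. Telmisartan lies above control in macrophage-like cells (41.9 against 8.60 CPM), in each macrophage subcluster and in the *Foxp3*-led cluster.

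Few cells carried the *Il10* message. At least 1 *Il10* UMI was seen in 110 of 4052 control macrophage-like cells (2.71%, 2.24 to 3.26) and 275 of 3999 telmisartan cells (6.88%, 6.11 to 7.71). Dendritic-like cells, taken as a class that should make little of it, had a UMI in 0.815% of control and 1.72% of telmisartan cells, at median depths of 7620 and 6375.5 UMIs. Neutrophil-like cells had none, at median depths of 1730 and 1796, where a floor of 3 cells allows up to 6.25% and 12.5% of cells with a UMI. With each cell thinned to 1000 UMIs, leaving out 45 control and 71 telmisartan cells that were shallower, the *Il10* share was 0.699% (0.465 to 1.01) in control and 2.80% (2.31 to 3.37) in telmisartan. Thinned dendritic-like cells had *Il10* in 2 of 367 control cells (0.545%, 0.0661 to 1.95), with 1 left out, and in 0 of 285 telmisartan cells (floor 1.05%), with 5 left out. The thinned control share in macrophage-like cells was not set apart from the dendritic-like share at this depth, and the telmisartan share was above it. Of the 6 *Il10* UMIs of control dendritic-like cells, 4 were in 1 cell of the cluster led by *Fscn1*. By summed *Il10* level, control macrophage-like cells, at 8.60 CPM, lay above control dendritic-like cells, at 2.04.

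The *Il10* UMIs were bunched. In control, 76 of the cells with *Il10* had 1 UMI and 11 had at least 10, up to 30 in a cell. In telmisartan, 124 had 1 UMI and 39 had at least 10, up to 48. Both groups thus held a small set of cells rich in *Il10*, and telmisartan held more of them. The top 1% of cells carried 260 of 329 *Il10* UMIs in control (79.0%) and 608 of 1192 in telmisartan (51.0%). The counting intervals of *Il10* levels and ratios do not cover this bunching. For comparison, the top 1% of cells held 18.9% and 16.7% of *Bcl3*, 10.2% and 9.78% of *Maf*, and 7.54% and 6.64% of *Socs3* UMIs.

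*Il10* also varied with the mitochondrial share of the cell, an alternative chosen after seeing the data. In macrophage-like cells with a share of 5% or less it was 5.02 CPM (3.52 to 6.95) in control and 46.3 (40.4 to 52.8) in telmisartan, a log2 ratio of 3.20. In those over 5% to 10% *Il10* was 6.69 CPM (5.71 to 7.80) and 34.6 (31.8 to 37.5), a ratio of 2.37. In those over 10% to 20% it was 19.6 CPM (16.3 to 23.2) and 56.9 (51.4 to 62.8), a ratio of 1.54. *Il10* was higher in telmisartan in each range, and the ratio was smallest where the mitochondrial share was highest.

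Markers of other cell types were also read in the macrophage-like cells that carried the *Il10* difference. Of 11 T cell markers 4 had at least 100 UMIs, and their list summed to 15.6 CPM in control and 17.3 in telmisartan. *Skap1* was the most abundant over both groups, while in control *Trbc2* had more UMIs (103 against 95). Of 7 regulatory T cell markers 4 did, with a sum of 41.8 and 40.6 CPM, led by *Ctla4*, and *Foxp3* itself had 12 and 16 UMIs. Within that list *Tnfrsf4* had 35 and 47 UMIs, a log2 ratio of 0.85 (0.19 to 1.53), and *Il2ra* was at −0.47 (−0.72 to −0.22). The 10 dendritic markers summed to 31.3 and 30.7 CPM, with 7 at 100 UMIs or more and *Ccl22* the most abundant, at a log2 ratio of −0.45. Of the 7, 5 were above 0, with a median of 0.27, and *Fscn1* (0.66) was 1.5-fold higher. The 9 neutrophil markers summed to 538 and 674 CPM, with 6 at that depth, *Cxcr1* at 0 and *Trem1* the most abundant at 453 and 563 CPM. All 6 were above 0, from *S100a8* (0.01) to *Hdc* (1.31), with a median of 0.38, while 43.0% of all genes were above 0. The 5 plasmacytoid markers summed to 207 and 268 CPM, with 2 at that depth, *Tcf4* the most abundant and *Klk1* at 0. The 7 B cell markers summed to 10.1 and 7.95 CPM, with 2 at that depth. *Ighm*, the most abundant of them, was at least 1.5-fold lower in telmisartan. The 5 NK markers summed to 0.888 and 1.09 CPM, led by *Klrb1c*, and the 6 mast cell markers to 0.261 and 0.211, led by *Cpa3*, with *Tpsab1* and *Fcer1a* at 0 and no gene of either list at 100 UMIs. The 9 tumor or stromal markers summed to 86.6 and 73.0 CPM, with 5 at that depth. The sum was led by *Cdh1*, at 60.1 and 43.3 CPM (−0.47), while 3 of the 5 were above 0 and the collagen genes *Col1a1* (0.85) and *Col1a2* (1.01) were 1.5-fold higher in telmisartan. The part of these markers in the *Il10* result was not tested.

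*Il10ra* encodes the chain that binds IL-10 and lies at chr9:45253837-45269149 on the minus strand. In macrophage-like cells it was 107 CPM (103 to 110) in control and 136 (131 to 140) in telmisartan. Its log2 ratio of 0.35 (0.29 to 0.41) turned to −0.061 as UMIs per cell with no scaling for depth, a setting that moved the median of all genes by −0.41. In control *Il10ra* was 176 CPM (103 to 282) in neutrophil-like, 168 (153 to 183) in dendritic-like and 59.7 (39.7 to 86.3) in T-like cells. In telmisartan it was 174 CPM (156 to 193) in dendritic-like, 81.5 (57.4 to 112) in T-like and 21.2 (0.536 to 118) in neutrophil-like cells. Dendritic-like, macrophage-like and T-like levels were in this order and apart in both groups, while neutrophil-like cells were first in control, overlapping the dendritic-like and macrophage-like intervals, and last in telmisartan, overlapping the T-like interval. Among macrophage subclusters *Il10ra* ranged from 80.0 CPM in subcluster 4 to 164 in subcluster 5 in control, and from 86.8 in subcluster 4 to 205 in subcluster 2 in telmisartan. The interval of its ratio lay above 0 in 3 of 6 subclusters, 1, 2 and 3, and below 0 in none. Neutrophil-like cells had 17 *Il10ra* UMIs in control and 1 in telmisartan, a log2 ratio of −3.06 (−8.44 to −0.38).

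*Il10rb* encodes the second chain, which IL-10 shares with IL-22 and the interferon lambdas, and lies at chr16:91406164-91425834 on the plus strand. In macrophage-like cells it was 113 CPM (110 to 117) in control and 139 (135 to 143) in telmisartan, a log2 ratio of 0.29 (0.23 to 0.36) that turned to −0.12 with no scaling. Over both groups, in the order that each group also had, *Il10rb* was 195 CPM (129 to 281) in neutrophil-like cells, 124 (122 to 127) in macrophage-like cells, 79.1 (62.0 to 99.4) in T-like cells and 55.2 (48.8 to 62.1) in dendritic-like cells. Within control each pair of neighbors but the middle one overlaps, and within telmisartan only the first pair does. *Il10rb* was lower in telmisartan in dendritic-like cells, at 63.0 and 43.7 CPM, a log2 ratio of −0.53 (−0.91 to −0.15). Within macrophages it was highest in subcluster 3 in both groups, at 164 and 186 CPM, the subcluster that also led for *Il10*.

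*Stat3*, the factor that carries the receptor's signal to the nucleus, lies at chr11:100885098-100939540 on the minus strand. Its macrophage-like level was 174 CPM (170 to 178) in control and 193 (188 to 198) in telmisartan, a log2 ratio of 0.15 (0.10 to 0.20) that turned to −0.26 with no scaling. In each group and over both *Stat3* was highest in T-like cells, at 515 CPM (469 to 563) over both, and neutrophil-like cells at 424 (324 to 545), which overlap, then dendritic-like cells at 320 (305 to 337), which overlap the neutrophil-like interval, and lowest in macrophage-like cells at 182 (179 to 185). In T-like cells *Stat3* was 437 CPM (379 to 501) in control and 594 (526 to 670) in telmisartan, a log2 ratio of 0.44 (0.18 to 0.71). Dendritic-like cells had the opposite direction, with 343 CPM in control, 288 in telmisartan and a log2 ratio of −0.25 (−0.40 to −0.11). That *Stat3* difference lay in the cluster led by *Fscn1*, a gene of mature dendritic cells, at 1047 and 672 CPM, a log2 ratio of −0.64 (−0.91 to −0.38). In the clusters led by *Cd209a*, with a log2 ratio of −0.00 (−0.20 to 0.20), and by *Sept3*, at 189 and 185 CPM, *Stat3* intervals of the groups overlap.

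*Socs3*, a STAT3 target whose protein feeds back on cytokine receptors, lies at chr11:117966079-117970047 on the minus strand. It was 291 CPM (285 to 296) in control and 352 (345 to 359) in telmisartan macrophage-like cells, a log2 ratio of 0.28 (0.24 to 0.31) that turned to −0.13 with no scaling. In control *Socs3* was highest in neutrophil-like cells at 476 CPM (349 to 635), apart from dendritic-like cells at 293 (274 to 314), which overlap macrophage-like cells. In telmisartan macrophage-like cells led, neutrophil-like cells at 339 CPM (193 to 550) overlap them, and dendritic-like cells were lower at 257 (235 to 280). T-like cells had the lowest *Socs3* in both groups, at 81.0 and 83.7 CPM. The largest *Socs3* difference among subclusters was in subcluster 2, at 349 and 510 CPM, a log2 ratio of 0.55 (0.43 to 0.66). In subcluster 6 it was 263 and 228 CPM, a ratio of −0.21 (−0.42 to 0.01). After thinning to 1000 UMIs, *Socs3* was seen in 22.5% of control and 29.8% of telmisartan macrophage-like cells, against 69.6% and 71.1% unthinned.

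*Bcl3*, a STAT3 target and partner of NF-kappa B proteins, lies at chr7:19808462-19822770 on the minus strand. It had 513 UMIs, or 13.4 CPM (12.3 to 14.6), in control and 624, or 22.0 CPM (20.3 to 23.7), in telmisartan macrophage-like cells. Telmisartan was higher at a log2 ratio of 0.71 (0.54 to 0.88), a 1.64-fold difference. Over both groups *Bcl3* was 29.1 CPM (24.5 to 34.3) in dendritic-like, 22.7 (14.1 to 34.8) in T-like, 20.9 (4.30 to 60.9) in neutrophil-like and 17.0 (16.1 to 18.1) in macrophage-like cells. Neighbors in this order overlap, while the dendritic-like and macrophage-like levels are apart. Dendritic-like cells had the highest *Bcl3* in each group too, at 27.9 and 30.8 CPM. The *Bcl3* ratio was largest in subclusters 6, at 1.26 (0.18 to 2.34), 4, at 1.08 (0.59 to 1.58), and 1, at 0.97 (0.68 to 1.26). In subcluster 2 *Bcl3* was 24.8 CPM in control and 28.5 in telmisartan, a ratio of 0.20 (−0.25 to 0.67).

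*Maf*, a transcription factor known to drive *Il10* in macrophages and T cells, lies at chr8:115682942-115707794 on the minus strand. It was 345 CPM (339 to 351) in control and 297 (291 to 303) in telmisartan macrophage-like cells. *Maf* was the 1 member of the 8 that was lower in telmisartan there, with a log2 ratio of −0.22 (−0.26 to −0.18). Over both groups it was 589 CPM (541 to 641) in T-like, 324 (320 to 329) in macrophage-like, 34.8 (11.3 to 81.1) in neutrophil-like and 14.1 in dendritic-like cells (upper bound 17.9), an order that each group also had, and among neighbors the neutrophil-like and dendritic-like intervals overlap. The *Foxp3*-led cluster, which had the highest *Il10*, also had the highest *Maf*, at 1532 CPM (1332 to 1753) in control and 1572 (1355 to 1813) in telmisartan. There the *Maf* intervals of the groups overlap.

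Among macrophages *Maf* was highest in subcluster 3, at 808 CPM (788 to 829) in control and 515 (498 to 533) in telmisartan, a log2 ratio of −0.65 (−0.71 to −0.59). It was also lower in telmisartan in subcluster 5, at −0.61 (−0.83 to −0.40), subcluster 4, at −0.40 (−0.51 to −0.28), and subcluster 2, at −0.25 (−0.36 to −0.14). In subcluster 1 *Maf* was 187 and 182 CPM, with overlapping intervals. Subcluster 6 had the opposite direction, at 122 and 188 CPM, a log2 ratio of 0.63 (0.36 to 0.89). In subclusters 2, 3, 4 and 5 *Il10* was thus higher and *Maf* lower in telmisartan.

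*Nfil3*, a leucine zipper factor that IL-10 induces in macrophages, lies at chr13:52967209-52981073 on the minus strand. It was 319 CPM (314 to 325) in control and 366 (359 to 373) in telmisartan macrophage-like cells, a log2 ratio of 0.20 (0.16 to 0.24) that turned to −0.21 with no scaling. In control *Nfil3* was highest in neutrophil-like cells at 466 CPM (340 to 623), and in telmisartan in macrophage-like cells, with neutrophil-like cells at 212 (101 to 389), which overlap them. T-like cells had the lowest *Nfil3* in both groups, at 183 CPM (147 to 227) and 165 (130 to 207), and in control they overlap dendritic-like cells. Its largest ratios among subclusters were 0.49 (0.30 to 0.67) in subcluster 6 and 0.42 (0.32 to 0.51) in subcluster 3. Neutrophil-like cells had 45 *Nfil3* UMIs in control and 10 in telmisartan, a log2 ratio of −1.14 (−2.29 to −0.13), while dendritic-like cells had 189 CPM (174 to 206) and 237 (216 to 259), a ratio of 0.32 (0.14 to 0.50).

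**Figure D2:**
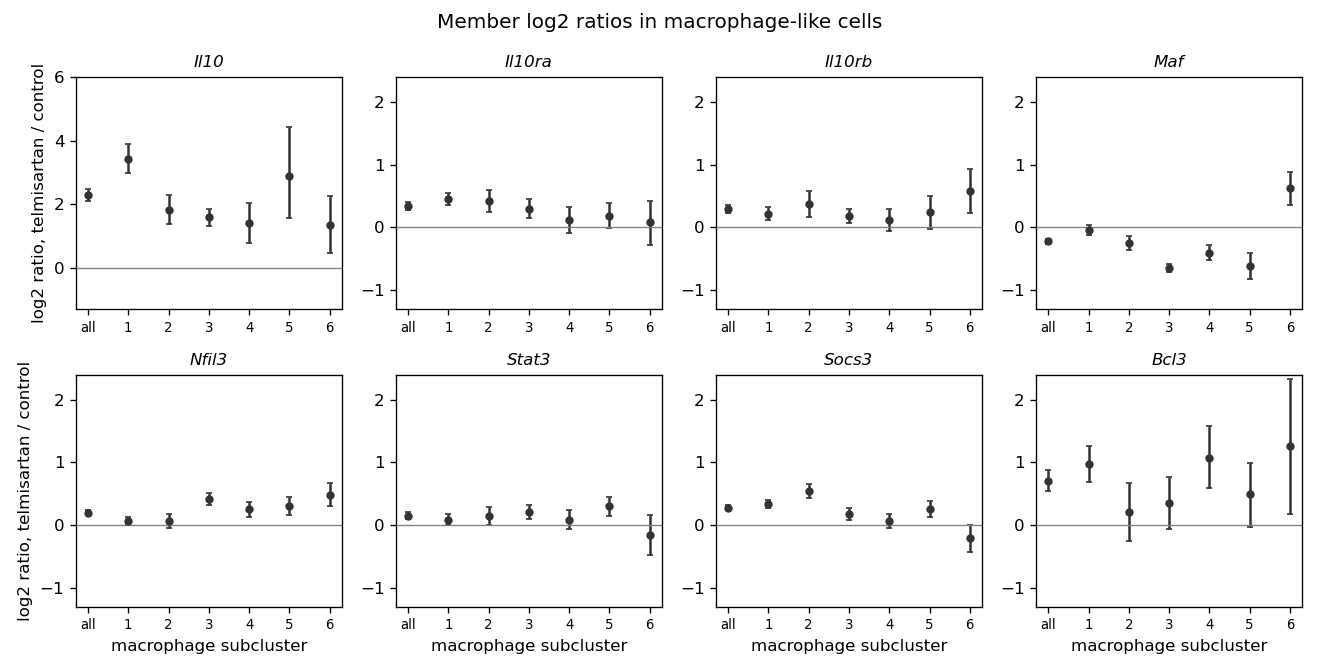
Log2 ratio of telmisartan over control CPM for each of the 8 genes, in all macrophage-like cells and in subclusters 1 to 6, with exact conditional binomial 95% intervals as bars and a line at 0 (the *Il10* panel has a wider axis). *Il10* lies above 0 in each subcluster, and *Maf* runs from −0.65 in subcluster 3 to 0.63 in subcluster 6; as UMIs per cell with no scaling, the all-cell values of *Il10ra*, *Il10rb*, *Nfil3*, *Stat3* and *Socs3* fall below 0.

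Of the 8 members, 2 (*Il10* and *Bcl3*) were at least 1.5-fold higher in telmisartan macrophage-like cells, and 4.69% of 11073 genes were. None of the members was at least 1.5-fold lower, and 2.24% of genes were. The choice of members used this contrast, so nothing is read from these counts. The members' median log2 ratio was 0.28, against −0.045 over all genes. Across all genes 519 were higher and 248 lower by this fold, so 67.7% of them were higher, a share that was 4.29% with no scaling and 51.0% after thinning. With a tag share of at least 90%, *Bcl3* fell just short of the fold, at a log2 ratio of 0.58, and the count was 1. It was also 1 as UMIs per cell with no scaling, where *Maf* was 1.5-fold lower, at −0.63. In dendritic-like cells 6 of 8 members had at least 100 UMIs, and 0 were 1.5-fold higher (3.68% of 5811 genes) or lower (3.39%).

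Cells with and without an *Il10* UMI were compared within each group at equal depth, each thinned to 1000 UMIs, which gave 28 cells with *Il10* in control and 110 in telmisartan. *Maf* was 859 CPM in control cells with *Il10* and 363 in those without, a log2 ratio of 1.24 (0.60 to 1.82), and in telmisartan 492 and 314, a ratio of 0.65 (0.22 to 1.04). Within both groups, then, *Maf* was higher in the cells with *Il10*. *Socs3* was 628 and 406 CPM in telmisartan, a ratio of 0.63 (0.26 to 0.98), and 358 and 307 in control, a ratio of 0.22 (−0.84 to 1.10). *Nfil3* had the other direction, with a ratio of −0.94 (−2.56 to 0.29) in control and −0.36 (−0.90 to 0.14) in telmisartan, and both intervals hold 0. So do those of *Il10ra*, *Il10rb*, *Stat3* and *Bcl3* in each group.

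When *Il10* was looked for in the whole cell, an alternative chosen after seeing the data with 109 and 274 such cells, the *Maf* ratio was 0.68 (0.29 to 1.05) in control and 0.47 (0.19 to 0.75) in telmisartan. The *Nfil3* ratio in control was then −0.91 (−1.63 to −0.28), and the *Bcl3* ratio in telmisartan 0.93 (0.01 to 1.75). Of the 28 thinned control cells with *Il10*, 39.3% were in subcluster 2 and 35.7% in subcluster 3, which held 15.6% and 18.5% of the cells without. Of the 110 in telmisartan, 37.3% were in subcluster 2 and 38.2% in subcluster 3, which held 29.2% and 20.3% of the cells without. With *Il10* looked for in the whole cell, subcluster 3 held 33.0% of such cells in control and 33.6% in telmisartan, subcluster 2 held 19.3% and 24.8%, and subcluster 1 held 26.6% and 27.0%. Of the cells without, subcluster 3 held 18.2% and 19.8%, subcluster 2 held 15.6% and 29.7%, and subcluster 1 held 40.8% and 35.3%. By this measure subcluster 2 held a smaller share of the cells with *Il10* than of those without in telmisartan. Unlike the thinned measure, the whole-cell one is not at equal depth. In telmisartan the median depth was 2653.5 UMIs in subcluster 2 and 7392 in subcluster 1.

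The 10 genes with the highest smaller-of-both-groups ratio in cells with *Il10*, out of 222 with enough UMIs, were *Apoe*, *Cxcl1*, *Sqstm1*, *Ccl3*, *Hmox1*, *Nfkbia*, *Clec4e*, *Cd83*, *C1qa* and *Selenop*. *Apoe*, a lipid carrier, was 1.96 higher in control and 1.23 higher in telmisartan on the log2 scale, and the chemokine gene *Cxcl1* 1.56 and 1.22. *Hmox1*, the heme-degrading enzyme that IL-10 induces, was 1.84 and 0.85 higher. *Apoe* is also a leading gene of subcluster 3, and these ratios were not taken within subclusters. With *Il10* looked for in the whole cell, out of 888 genes, 4 of the 10 were shared (*Apoe*, *C1qa*, *Cxcl1* and *Selenop*), and *Hmox1* was not among them. Cells with *Il10* had summed levels of genes that IL-10 is known to induce at log2 ratios of 0.55 in control and 0.48 in telmisartan. Genes that IL-10 is known to lower were also higher in cells with *Il10*, at 0.69 and 0.42, as were early response genes, at 0.40 and 0.29, and macrophage markers, at 0.19 and 0.28. Neutrophil markers were at −0.17 (−1.08 to 0.60) and −0.58 (−1.01 to −0.18). With *Il10* looked for in the whole cell the neutrophil markers were at −0.60 (−1.10 to −0.14) and −0.51 (−0.78 to −0.26), the induced genes at 0.18 and 0.28, and the lowered genes at 0.27 and 0.27. Tumor or stromal markers were then at −1.70 (−3.99 to −0.14) and −1.21 (−2.35 to −0.27), from 3 and 9 UMIs in the cells with *Il10*. In the thinned comparison these markers had 0 UMIs in control cells with *Il10*, and in telmisartan a ratio of −0.70 (−2.33 to 0.54).

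Over the 6 macrophage subclusters in each group, 12 points that share 1 capture and each group's pool, the 10 genes most like *Il10* by Pearson correlation of log2(CPM + 1) included *1700017B05Rik* (r 0.94), *Slc35e4* (0.91), *Atp6v1c1* (0.88), *Rilpl2* (0.88), *Ankrd28*, *Slc16a10*, *Fem1b*, *Baiap2* and *Ankrd33b* (each 0.87), out of 10014 genes. Among the members, *Il10rb* was nearest to *Il10*, with r 0.74 over the 12 points, 0.56 over the 6 control points and 0.88 over the 6 telmisartan points. *Maf* had r 0.45 over the 12 points but 0.65 within control and 0.87 within telmisartan. The r of *Il10* with *Maf* was thus larger within each group than over both. The other members had r over the 12 points of 0.28 (*Bcl3*), 0.23 (*Nfil3*), 0.13 (*Il10ra*), 0.05 (*Socs3*) and 0.05 (*Stat3*). Within control these 5 were below 0, at −0.066 for *Bcl3*, −0.20 for *Nfil3*, −0.29 for *Il10ra*, −0.46 for *Socs3* and −0.17 for *Stat3*. Within telmisartan *Bcl3* was at −0.33, *Nfil3* at 0.19, *Il10ra* at 0.13, *Socs3* at 0.036 and *Stat3* at 0.073.

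**Figure D3:**
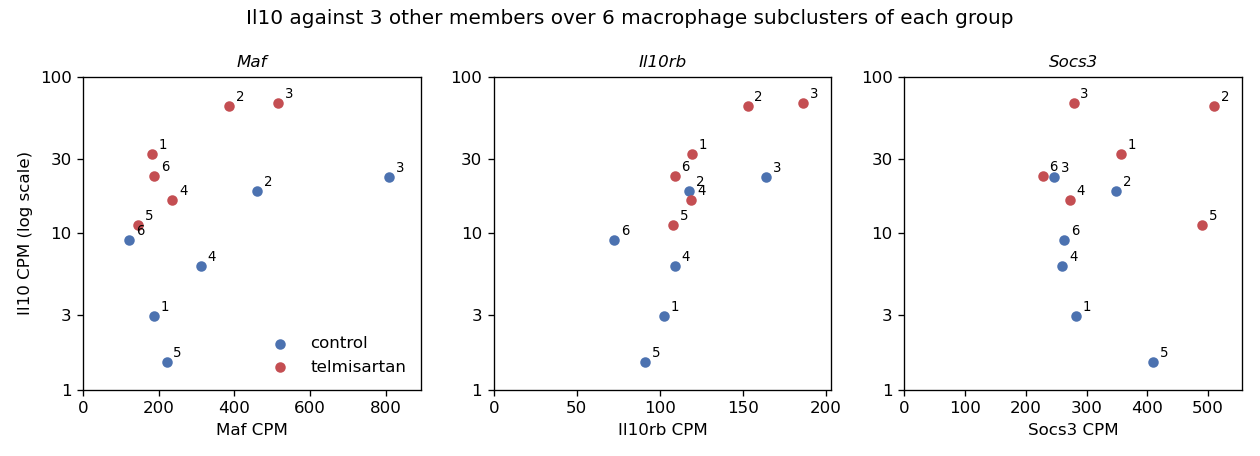
*Il10* CPM (log axis) against *Maf*, *Il10rb* and *Socs3* CPM, with a point for each of the 6 macrophage subclusters (numbered) in control (blue) and telmisartan (red). Subclusters 2 and 3 have the highest *Il10* in each group, and subcluster 3 has the highest *Maf* (808 CPM in control, 515 in telmisartan).

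The wider pathway was described in macrophage-like cells by gene lists, each set beside the 4.69% of all genes higher, the 2.24% lower and the all-gene median of −0.045. Of 14 genes of receptor signaling, *Il10ra*, *Il10rb*, *Stat3* and *Socs3* among them, 0 were 1.5-fold higher or lower, with a median log2 ratio of 0.01. *Jak1*, the kinase gene of the IL-10RA chain, was 159 CPM in control and 163 in telmisartan. Of 16 genes known to be induced by IL-10 in macrophages, 15 had at least 100 UMIs and 4 were 1.5-fold higher, with a median of 0.28. They were *Bcl3*, the repressor gene *Etv3* (0.63), *Hmox1* (0.61) and the TNF receptor gene *Tnfrsf1b* (0.66). The scavenger receptor gene *Cd163*, often used to mark macrophages exposed to IL-10, had 15 and 8 UMIs.

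Of 15 genes known to be lowered by IL-10, 13 had at least 100 UMIs, 4 were 1.5-fold higher and 0 lower, with a median of 0.32. *Tnf* was 120 CPM in control and 184 in telmisartan (0.62), *Il6* 18.6 and 40.4 (2.17-fold), *Cxcl1* 399 and 879 (1.14), and *Il23a* 8.57 and 16.5 (0.95). These 4 inflammatory genes were thus higher in the same pool as *Il10*. Other genes of the list went the other way, with *Il1a* at 558 and 440 CPM (−0.34) and *Il12a*, below the minimum of 100 UMIs, at 31 and 5 UMIs, a log2 ratio of −2.20 (−3.92 to −0.83). Of 29 factors and kinases known to act on *Il10*, *Maf*, *Nfil3* and *Stat3* among them, 4 were 1.5-fold higher and 0 lower, with a median of 0.09. Among them were the cyclic AMP response gene *Crem* at 87.6 and 164 CPM (0.91), the salt-inducible kinase gene *Sik3* at 92.8 and 165 (0.83) and *Nfkb1* (0.59). *Mapkapk2*, a kinase gene that lies beside *Il10* on chromosome 1, was 103 and 130 CPM (0.34).

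Of 14 genes of the IL-10 family and its receptors, 12 were in the table and 4 had at least 100 UMIs. *Il10* was the 1 cytokine among those 4, and its neighbors *Il19* and *Il20* had 1 UMI each in all macrophage-like cells. Of 8 other receptors that signal through STAT3, 5 had at least 100 UMIs and 1, *Lifr*, was 1.5-fold higher, at 13.7 and 24.6 CPM (0.84). Of 17 early response genes, 4 were 1.5-fold higher and 0 lower, with a median of 0.26, and *Nr4a3* led at 80.1 and 223 CPM (1.48). Of the 17, 7 were below 0, while 57.0% of all genes were. Among the 7 were *Fos* (−0.46), *Jun* (−0.43), *Hspa1b* (−0.43) and *Atf3* (−0.30), and the sum of the 17 had a log2 ratio of 0.08. Early response genes can move with tissue handling, and their part in the *Il10* result was not tested.

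RefSeq promoters (build GRCm38.p6) were found for 4 of the 8 members, *Bcl3*, *Nfil3*, *Socs3* and *Stat3*, and not for *Il10*, *Il10ra*, *Il10rb* and *Maf*. The 250 bases before each RefSeq start were searched on both strands for a STAT element (TTCNNNGAA), a MAF core (TGCTGA), an NFIL3 element (TTANGTAA) and a CRE core (TGACG). Of 32851 promoters, 7.02% hold the first, 16.1% the second, 2.06% the third and 17.8% the last. *Socs3* holds a STAT element, *Nfil3* a CRE core and *Stat3* a MAF core, and none of these letters is in the *Bcl3* window. The *Socs3* and *Nfil3* stretches, shown because IL-10 is known to induce these members and each holds a searched motif, are chr11:117969452-117969616 and chr13:52981074-52981289, both on the minus strand, and capitals mark the STAT element and the CRE core. The *Socs3* stretch lies before the RefSeq start but inside the longer span that GENCODE gives the gene, which begins with a further transcript at 117970047. A match is a description of letters and no evidence of binding.
Socs3: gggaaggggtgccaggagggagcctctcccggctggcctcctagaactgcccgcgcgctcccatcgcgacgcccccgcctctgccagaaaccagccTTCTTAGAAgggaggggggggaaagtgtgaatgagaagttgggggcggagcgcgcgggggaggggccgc
Nfil3: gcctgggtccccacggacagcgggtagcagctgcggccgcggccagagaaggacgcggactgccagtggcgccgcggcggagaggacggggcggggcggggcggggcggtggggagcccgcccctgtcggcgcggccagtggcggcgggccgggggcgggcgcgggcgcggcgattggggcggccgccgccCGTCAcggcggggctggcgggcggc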

How the data were processed

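The authors deposited counts, UMI counts per gene and putative cell, made with the BD Rhapsody WTA Analysis Pipeline 1.11 from reads on GRCm38 (GENCODE M19, introns counted), and counts of Sample Tag reads per cell. Both tables list the same 20726 cells, and neither holds a cell annotation. Groups were called where 1 tag held 75% or more of a cell's tag reads (minimum 10), which set aside 1580 cells split between tags and 186 with too few reads. Limits of 150 and 5000 genes and of 20% for the mitochondrial share were met by 5078 of 8738 control and 4833 of 10222 telmisartan cells. The automatic threshold of Scrublet (scanpy 1.11.5) marked 0 cells, so the 942 highest scores were removed, the 9.51% of doublets that tag multiplets predict.

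Clustering used Seurat 5.3.0 in R 4.3.3 (2000 variable genes, 30 principal components, 20 neighbors, resolution 0.5, and 0.35 for macrophage subclusters). Clusters were named from at least 3 markers of a class at 4 times the level in other cells. The clusters left over were called macrophage-like where at least 3 macrophage markers were detected (10 UMIs and 10% of cells), with no fold required. Python 3.11.15, numpy 2.4.6, scipy 1.17.1, pandas 2.3.3 and matplotlib 3.10.9 gave sums, intervals, thinning and figures, and the ratios were checked on simulated data. Positions are from GENCODE M21. Ratios over all genes took those with at least 100 UMIs. Named genes were the 8 members, genes of the lists, the 10 most like *Il10* with at least 200 UMIs, and the 10 leading genes in cells with *Il10* with at least 20 UMIs there in each group. Members and lists were chosen with earlier results of these data known. With 1 pool for control and 1 for telmisartan, no test was run. Alternatives covered tag share, gene minimum, mitochondrial limit, doublets, resolution, the macrophage class, scaling (TMM from edgeR 4.0.16 included) and thinning.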

Additional observations from a re-analysis of the deposited data

Results flagged for a closer look

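Some members differed between the groups in opposite directions in different cell classes, with counting intervals on opposite sides of 0. The log2 ratio of *Il10ra* was 0.35 in macrophage-like and −3.06 in neutrophil-like cells. That of *Il10rb* was 0.29 in macrophage-like and −0.53 in dendritic-like cells. For *Nfil3* it was 0.20 in macrophage-like and 0.32 in dendritic-like cells against −1.14 in neutrophil-like cells. For *Stat3* it was 0.15 in macrophage-like and 0.44 in T-like cells against −0.25 in dendritic-like cells. For *Socs3* it was 0.28 in macrophage-like and −0.19 in dendritic-like cells. Among macrophage subclusters the *Maf* ratio was 0.63 in subcluster 6 against −0.25 in subcluster 2, −0.65 in subcluster 3, −0.40 in subcluster 4 and −0.61 in subcluster 5. As UMIs per cell with no scaling, the macrophage-like ratios turned below 0 for *Il10ra* (−0.061), *Il10rb* (−0.12), *Nfil3* (−0.21), *Stat3* (−0.26) and *Socs3* (−0.13). That setting moves the ratios of all genes alike, and the all-gene median moved by −0.41. With 1 pool a group, none of these differences between classes or subclusters was tested.

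*Il10* was also seen in cells that the comparisons leave out. In cells over the mitochondrial limit it had 63 UMIs in control and 141 in telmisartan, or 13.8 and 20.2 CPM, a log2 ratio of 0.54 (0.11 to 1.00). In cells removed by Scrublet score it had 84 and 83 UMIs, or 13.5 and 20.6 CPM, a ratio of 0.61, with a lower bound of 0.15. Both ratios cover all left-out cells of that kind, not split by class. They have the direction of the kept macrophage-like cells, 2.29, and are smaller, a difference that was not tested. The few cells over the gene maximum, 74 in control and 16 in telmisartan, had 6 and 0 *Il10* UMIs, or 2.90 CPM (1.07 to 6.32) in control, and a floor of 3 counts allows up to 6.88 CPM in telmisartan, so a difference was not detectable there.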

How the results depend on the processing

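The *Il10* log2 ratio in macrophage-like cells was above 0 under all 13 alternatives tried for every member, from 1.88 to 2.56, and within its counting interval in 10. It was 2.56 with a mitochondrial limit of 10%, 1.88 as UMIs per cell with no scaling and 2.01 with cells thinned to 1000 UMIs. Under alternatives chosen after seeing the data it was 2.07 with telmisartan subclusters weighted as in control, 3.51 without the 1% of cells with the most *Il10*, 3.20 at a mitochondrial share of 5% or less and 1.54 over 10% to 20%. Leaving out that 1% removes every control cell with more than 1 *Il10* UMI, so the larger ratio follows in part from which cells were left out. In subcluster 1, at 3.43, the ratio was −1.04 (−6.46 to 1.72) in a finer cluster led by *Chil3* and 4.87 in a finer cluster led by *Ereg*, also chosen after seeing the data. With no scaling the direction turned for *Il10ra* (−0.061), *Il10rb* (−0.12), *Nfil3* (−0.21), *Stat3* (−0.26) and *Socs3* (−0.13), while the median of all genes moved by −0.41. These 5 were above 0 in the other 12. *Maf* was below 0 in all 13 and *Bcl3* above 0 in all 13. Members at least 1.5-fold higher were 1 in place of 2 with a tag share of at least 90% and with no scaling, and members at least 1.5-fold lower were 1 in place of 0 with no scaling, where *Maf* was −0.63. The cause was not tested. Depth limits the neutrophil-like cells most, with 96599 and 47267 UMIs in all. No paired analysis was possible because each group was 1 pool.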
